A study of Solanum lycopersicum with 18 samples.

Results

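The m6A peaks of Cnr fruit at 42 days post-anthesis (DPA) were set against those of wild-type fruit of the same age. The comparison rests on 6 of the 9 deposited peak lists, 3 of Cnr and 3 of wild-type pericarp, and each list was made from 1 immunoprecipitated (IP) library and its own input library. Peaks that shared at least 1 bp were merged over the 6 lists. This gave 11633 merged regions, of 12119 over all 9 lists of the series. A peak was present in all 6 lists in 8007 of them, in the 3 Cnr lists only in 668, and in the 3 wild-type lists only in 314. The other 2644 regions had a peak in some other set of lists.

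All fruit was of the tomato cultivar Ailsa Craig and was grown in a greenhouse. Cnr (Colorless non-ripening) is an epimutant whose fruit does not ripen, and wild-type fruit at 42 DPA is at the breaker stage, when ripening becomes visible. Fruit of equal age was therefore not of equal ripening stage. Wild-type fruit at 39 DPA, a mature green stage, is used below only to show where a peak stood before breaker. Each RNA sample was a mixture from at least 30 fruits, and each group had 3 biological replicates. In such bulk pericarp RNA, a change in the share of a cell type and a change within its cells cannot be told apart. The descriptions of genes are those of the study's tables of changed transcripts. They cover 921 of the 8007 shared regions, and they therefore favour transcripts that changed.

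N6-methyladenosine (m6A) is a methyl mark on adenosines within mRNA, set by a methyltransferase complex and removed by demethylases of the ALKBH family. In plants, as in animals, it gathers near the stop codon and in the 3′ UTR, and it is known to affect the stability and translation of the mRNA that carries it. In tomato, ripening is under the control of DNA demethylation by SlDML2, of MADS-box transcription factors such as FUL2, and of ethylene, which the receptor NR perceives.

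The oligonucleotides with which the study measured and altered m6A in these transcripts are shown because the regions of SlDML2, FUL2 and NR are described in detail below. They are written from 5′ to 3′. The primer pairs served for PCR after m6A immunoprecipitation, and the capital in the reverse primer of SlDML2 marks its last base. The mutagenesis oligonucleotide of SlDML2 carries the substitution A12C, counted from 1 at its 5′ end, and the capital marks the changed base. Apart from the changed base, its last 17 bases match the start of the reverse complement of the reverse primer, whose position 1 is the base that was changed. The primer thus ends opposite that adenosine.
SlDML2 forward: cctgaacatagctaccc
SlDML2 reverse: ttaccgactggaatagaacT
SlDML2 changed site: caatatcatgtCgttctattccagtcgg
FUL2 forward: caaagcaggttaaggaaaggg
FUL2 reverse: gagatgatcatgactctgttgctc
NR forward: gtcatcctcctgaaatgttcc
NR reverse: ccagtatctctaacctggacac

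The value compared is the fold enrichment of the IP over the background at the highest summit of a region. The background is the local input level, or, if greater, a floor set by the whole library. This floor was 44.6 to 50.9 fragments, and 40.2% to 48.8% of a list's summits lay on it. There only the IP moves the enrichment, and a change in m6A cannot be told apart from a change in transcript level. Across the 8007 shared regions, the log2 enrichment of lists of the same genotype had a Pearson's r of 0.952 to 0.989, and that of a Cnr and a wild-type list had 0.823 to 0.863, over regions that share a library and are not independent. Cnr replicate 2 stood apart from the other Cnr lists in its level of enrichment. Its median log2 enrichment was 2.85, against 3.13 and 3.21 in Cnr replicates 1 and 3 and 2.75, 2.76 and 2.52 in the wild type. Results that rest on it are given with and without it. Of 11 identifiers of genes that mark ripening pericarp, 2, 4 and 2 had a peak in the Cnr lists and 3, 4 and 4 in the wild-type lists. A peak needs m6A as well as transcript, so this is no check of the tissue.

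The enrichment was higher in Cnr at most shared regions. Regions were counted as changed, or called, at 1.5-fold or more and a limma p-value under 0.05. The study used the same limits, but with a different algorithm for differential peaks. By this rule 2014 regions were higher in Cnr (25.2% of 8007) and 153 were lower (1.91%). Since most regions shifted together, each list was also centred on its median. After centring, 434 regions were higher (5.42%) and 635 lower (7.93%). All 434 and all 153 were called with and without centring, and no region called higher without centring was called lower with it.

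**Figure D1:**
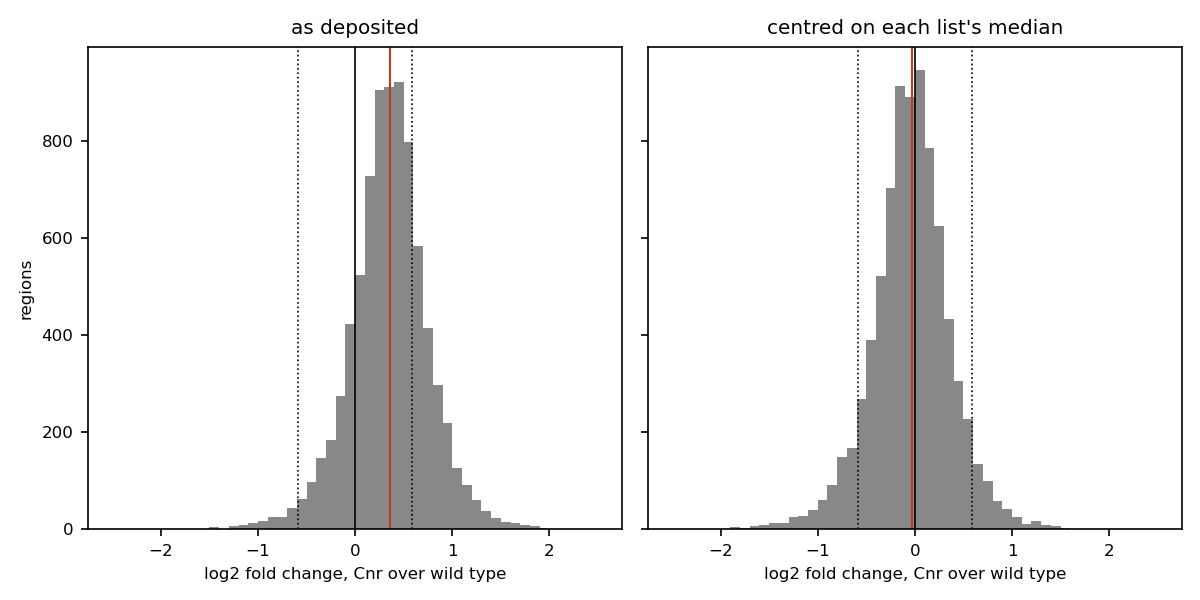
Histograms of the log2 fold change in m6A enrichment, Cnr over wild type at 42 DPA, in the 8007 regions with a peak in all 6 lists (horizontal axis, log2 units; vertical axis, number of regions), as deposited on the left and after centring each list on its median on the right. Red lines mark the medians, 0.36 and -0.03, and dotted lines the 1.5-fold limits. Most of the distribution lies right of 0 as deposited and around 0 after centring.

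The standard error of a log2 change without centring was 0.173 for every region, since limma drew it from the spread pooled over all regions. The limma p-values without centring thus do not reflect the replicates of a single region. At this standard error every change of 1.5-fold or more had a p-value under 0.05. The calls without centring therefore rest on the fold change alone. For the median log2 enrichment as a single value per list, the difference between Cnr and wild type was 0.39 and it ranged from 0.31 to 0.49 when 1 list was left out (p = 0.1 by an exact two-sided permutation test, which can give nothing smaller for 3 against 3 lists). Without Cnr replicate 2, 2970 regions were higher and 173 lower, and without Cnr replicate 3, 1484 were higher and 190 lower. The shift was present over most of the range of enrichment. The median change was 0.24 in the 2002 regions with the lowest mean enrichment and 0.38, 0.40 and 0.37 in the next groups of like size above them.

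The change was set out by part of the transcript. Peaks with a start before the coding sequence closes and an end beyond are said to lie across the stop codon. Of the 8007 regions, 6602 overlapped exactly 1 gene, and among these 25.1% were higher and 1.94% lower in Cnr, or 5.24% and 7.86% after centring. The 5079 regions across the stop codon had a median log2 change of 0.36, the 1101 in the 3′ UTR 0.38 and the 198 centred on an intron 0.38. The 157 regions within the coding sequence had a median change of 0.06, and 12.7% of them were called higher. After centring, 29.3% of the coding regions were called lower, against 7.01% of those across the stop codon. The 28 regions upstream of the start had a median change of -0.11 and the 11 in the 5′ UTR one of -0.01.

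List by list, the median log2 enrichment of the coding regions was 1.79, 1.93 and 1.86 in Cnr, against 1.80, 2.02 and 1.53 in the wild type. The groups overlapped. Across the stop codon it was 3.23, 2.95 and 3.32 in Cnr, against 2.87, 2.87 and 2.64 in the wild type, without overlap. The log2 enrichment of the coding regions minus that across the stop codon was -1.44, -1.02 and -1.46 in the Cnr lists, against -1.07, -0.85 and -1.11 in the wild-type lists. Cnr replicate 2 fell among the wild-type lists. The gap differed between Cnr and wild type by -0.30 (exact two-sided permutation test, p = 0.3), or by -0.44 to -0.22 when 1 list was left out, and was not shown to differ beyond the spread of the lists.

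**Figure D2:**
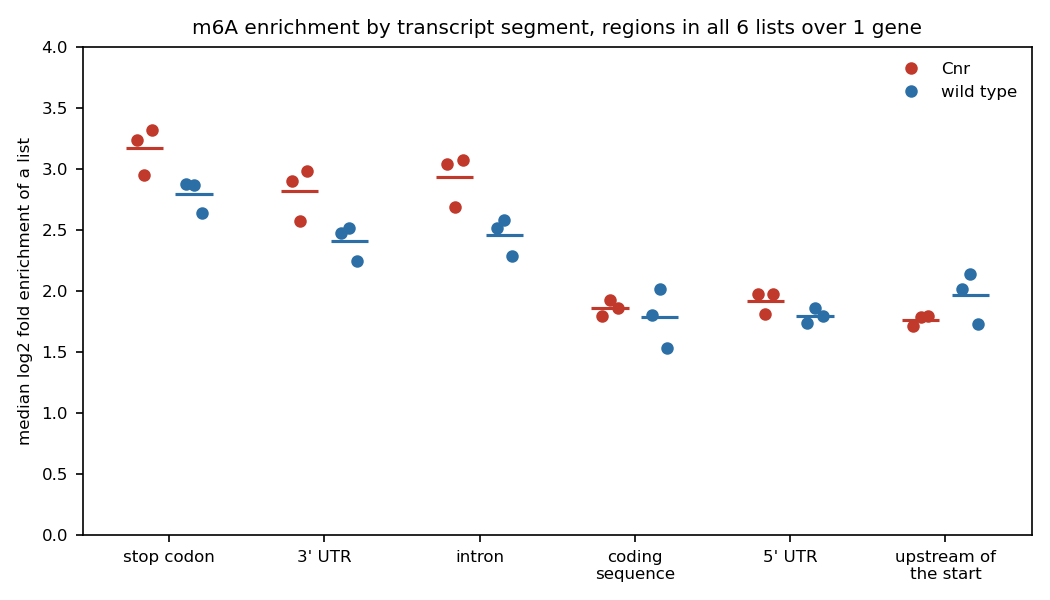
Median log2 fold enrichment of each list (vertical axis, log2 units) by transcript segment (horizontal axis) for regions with a peak in all 6 lists over 1 gene. Red points are the 3 Cnr lists, blue points the 3 wild-type lists, in order of replicate, and bars are group means. The Cnr lists lie above the wild-type lists in introns, in the 3′ UTR and across the stop codon, and the groups overlap in the coding sequence.

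The largest rises in Cnr were in transcripts of varied function. They are the 12 largest among the 1956 called rises whose groups did not overlap and whose region covered 1 described gene, which left 443. Of all shared regions, 3862 had every Cnr list above every wild-type list (48.2%), and 407 had every Cnr list below (5.08%).

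Solyc03g082630, a P-loop containing nucleoside triphosphate hydrolase, carried its region across the stop codon on chromosome 3 from 53977065 to 53977472 (SL3.0, as for all positions). Its enrichment was 9.84, 6.42 and 9.66 in Cnr, against 2.39, 2.57 and 2.16 in the wild type. That every Cnr list stood above every wild-type list was a condition of the choice, and Cnr replicate 2 was the lowest of the 3. The background was on the floor in all 6 lists, so that transcript level and m6A cannot be told apart here. In log2 the change in enrichment was 1.84, with a standard error of 0.173 and, from limma, a Benjamini-Hochberg (BH) adjusted p = 2.35e-23. After centring it was 1.45. At 39 DPA the wild type had 3.40, 2.57 and 3.08 here, nearer to its own level at 42 DPA than to Cnr.

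The hexosyltransferase transcript Solyc02g088630, for an enzyme that transfers hexose sugars, had a region in its 3′ UTR on chromosome 2 from 51293549 to 51294041. Its enrichment was 13.6, 12.3 and 14.4 in Cnr, against 4.23, 3.50 and 3.57 in the wild type. The 3 Cnr lists were close to each other, and the log2 change was 1.84 (BH-adjusted p = 2.65e-23 from limma). The background was on the floor in Cnr replicate 2 and in all 3 wild-type lists, and 1.03 times the floor in Cnr replicates 1 and 3. At 39 DPA the wild type had 6.20, 4.25 and 7.22.

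Solyc06g071580 encodes a MORC family CW-type zinc finger protein, of a family that acts in chromatin compaction and gene silencing in Arabidopsis. At its region on chromosome 6 from 44223008 to 44223424 the enrichment was 10.9, 8.67 and 9.71 in Cnr, against 3.03, 3.37 and 2.20 in the wild type at 42 DPA. This was a log2 change of 1.78 (BH-adjusted p = 4.66e-22 from limma), with the background on the floor in all 6 lists. No list of wild-type fruit at 39 DPA had a peak there, so this peak was called in the wild type at breaker and not 3 days earlier.

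Solyc03g119140, annotated as MAP kinase kinase kinase 30, belongs to the upper tier of the kinase cascades that relay stress and hormone signals. Its region was centred on an intron, and its enrichment was 9.06, 7.42 and 10.003 in Cnr, against 3.09, 2.63 and 2.43 in the wild type. This is a log2 change of 1.70, with the background on the floor in the wild type and 1.08, 1.07 and 1.03 times the floor in Cnr. Solyc11g069790, a chaperonin 60 alpha subunit that helps proteins to fold, had 13.6, 11.3 and 13.5 in Cnr, against 4.38, 4.46 and 3.63 in the wild type, a log2 change of 1.62. Its background was on the floor in Cnr and 7.62, 7.71 and 7.60 times the floor in the wild type. Its IP was lower in Cnr, at 13.8, 11.5 and 13.7 times the floor, against 33.5, 34.5 and 27.6 in the wild type. A like change of 1.62 was found in Solyc01g080160, a DUF21 domain-containing protein, with 10.9, 8.60 and 11.9 in Cnr, against 3.29, 3.70 and 3.16 in the wild type and its background on the floor in all 6 lists. In both, the gap in enrichment between the groups was wider than the spread within either group.

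The other 6 of these rises had log2 changes of 1.502 to 1.59. They were a kinase family protein (Solyc09g090200), a pyridoxal phosphate-dependent transferase (Solyc03g118300), an En/Spm-like transposon (Solyc03g083200), a carboxypeptidase (Solyc04g015340), vacuolar protein sorting-associated protein 2 homolog 2 (Solyc06g008290), of the ESCRT machinery that buds vesicles into endosomes, and an arginine N-methyltransferase (Solyc08g067050). For the transposon and the arginine N-methyltransferase the background was on the floor in all 6 lists. That of Solyc06g008290 was on the floor in the 3 Cnr lists only, and that of the carboxypeptidase in 2 Cnr lists only. The arginine N-methyltransferase differed from the rest in its earlier level. It had 7.67, 7.19 and 9.49 in Cnr and 3.21, 2.76 and 2.60 in the wild type at 42 DPA, while the wild type at 39 DPA had 8.03, 8.61 and 9.33. The Cnr values thus overlapped those of the younger wild-type fruit at this region, which is a description without a test.

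**Figure D3:**
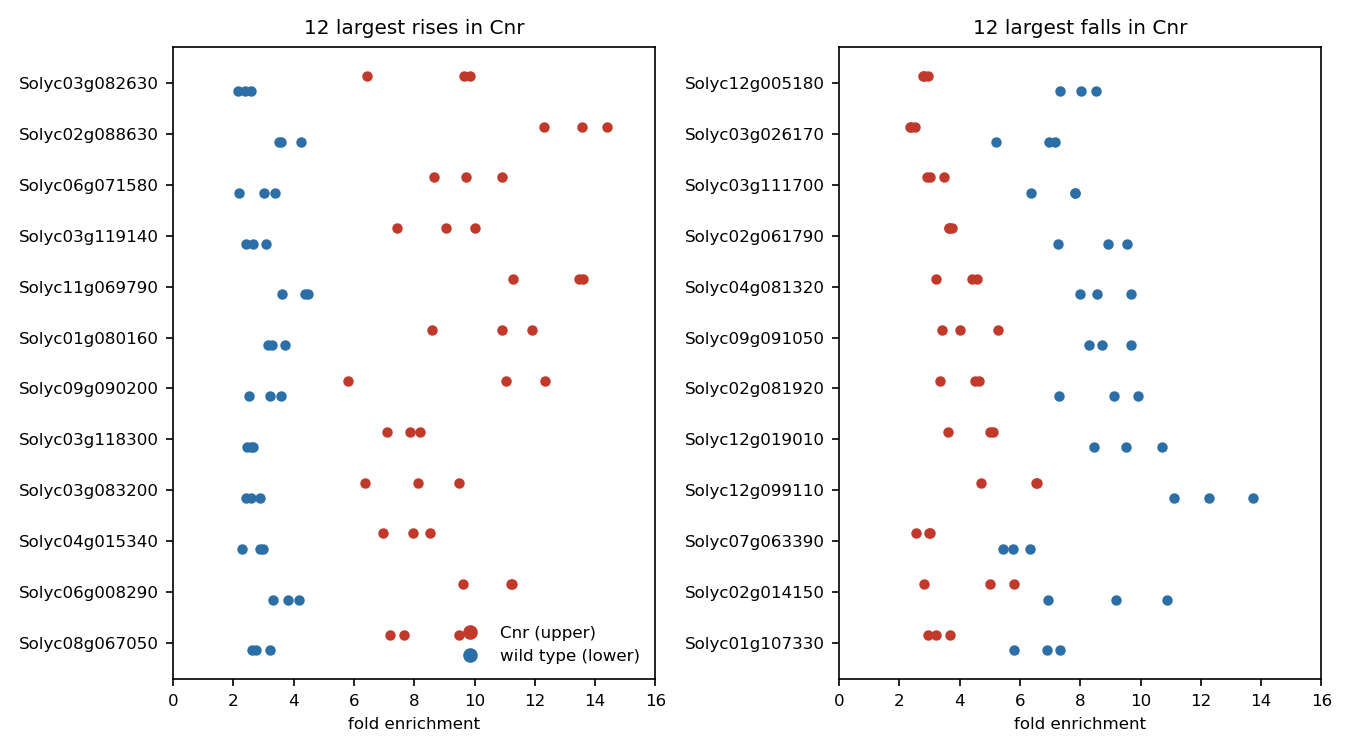
Fold enrichment (horizontal axis, linear, no unit) of the 12 largest called rises on the left and the 12 largest called falls on the right, each a region over 1 described gene. Each point is 1 list, with Cnr in red above the wild type in blue at 42 DPA. In no gene do the groups overlap, and Cnr replicate 2 is the lowest Cnr point in the first rise, at 6.42 against 9.66 and 9.84.

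The falls in Cnr were fewer, 147 with groups that did not overlap, of which 42 covered 1 described gene. Several of the largest were in transcripts for plastid proteins. Among the 12 largest falls, 5 had a description that names the chloroplast, the plastid or a photosystem, and among the 12 largest rises none did. These words were chosen after the values were seen. Over all described regions, 22 had such a word, with 7 called higher, 7 called lower and a median log2 change of 0.15, beside 445 higher, 43 lower and a median of 0.57 over all 921 described regions.

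The chloroplast lipocalin Solyc12g005180, of a family of proteins that bind small lipophilic molecules, had the largest fall. At its region on chromosome 12 from 123977 to 124347 the enrichment was 2.93, 2.83 and 2.79 in Cnr, against 8.51, 8.04 and 7.33 in the wild type. The lists of a genotype were close together. In log2 this was a change of -1.48 (limma, standard error 0.173, BH-adjusted p = 2.14e-15), or -1.87 after centring. At 39 DPA the wild type had 10.3, 9.71 and 11.4.

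The F-box protein Solyc03g026170, of the family that picks substrates for ubiquitin ligases, had 2.37, 2.34 and 2.51 in Cnr, against 7.16, 6.96 and 5.20 in the wild type. Its log2 change was -1.41 (BH-adjusted p = 5.41e-14 from limma). Its IP was higher in Cnr, at 13.3, 12.8 and 13.1 times the floor, against 7.29, 7.08 and 5.29 in the wild type, and its background was 5.60, 5.45 and 5.21 times the floor in Cnr and on the floor in the wild type. Solyc03g111700, of the metallo-hydrolase/oxidoreductase superfamily, followed with 2.91, 3.03 and 3.48 in Cnr, against 7.82, 7.84 and 6.36 in the wild type, a log2 change of -1.22. Its background was on the floor in all 6 lists. In these genes and in the lipocalin, replicate 2 was not the Cnr list nearest to the wild type.

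Solyc02g061790, an RNA polymerase II transcriptional coactivator, had 3.63, 3.64 and 3.75 in Cnr, against 8.91, 9.56 and 7.25 in the wild type, a log2 change of -1.21. Protein disulfide-isomerase LQY1 (Solyc04g081320), which in Arabidopsis takes part in the repair of photosystem II, had 4.40, 3.22 and 4.56 in Cnr, against 9.69, 8.54 and 7.98 in the wild type, a log2 change of -1.12. Solyc09g091050, a calcium-dependent lipid-binding protein, had 4.02, 3.42 and 5.26 in Cnr, against 9.68, 8.73 and 8.28 in the wild type, a log2 change of -1.09. At 39 DPA the wild type had 4.60, 4.16 and 4.95 at this region, a range that overlapped that of Cnr, whereas LQY1 then had 10.4, 8.99 and 10.3. The background of LQY1 was on the floor in all 6 lists. That of the coactivator and the lipid-binding protein was on the floor in the Cnr lists only.

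The other 6 falls had log2 changes between -1.08 and -1.02. They included plastid transcriptionally active 14 (Solyc02g081920), a part of the plastid transcription machinery in Arabidopsis, a chloroplastic 2-phytyl-1,4-beta-naphthoquinone methyltransferase of phylloquinone synthesis (Solyc12g019010), 30S ribosomal protein S1 (Solyc12g099110) and the photosystem II assembly factor HCF136 (Solyc02g014150). The last depended most on a single list. HCF136 had 4.999, 2.81 and 5.81 in Cnr, against 10.9, 6.93 and 9.17 in the wild type, and its log2 change of -1.03 moved between -1.24 and -0.71 when 1 list was left out. A beta-glucosidase (Solyc07g063390) and a SWIB_MDM2 domain protein (Solyc01g107330) made up the rest. For Solyc02g081920, Solyc12g099110 and HCF136 the background was on the floor in all 6 lists. That of Solyc12g019010 was on the floor in the 3 Cnr lists and 1 wild-type list, and that of Solyc01g107330 in the 3 Cnr lists only.

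In 3939 of the shared regions no list had its background on the floor, so that the input and the IP could be followed apart. Both are given as multiples of the list's floor. In the regions called, 679 of the 2014 rises and 24 of the 153 falls lay above the floor, while 896 of the rises (44.5%) and 80 of the falls (52.3%) lay on the floor in all 6 lists. Of all shared regions, 2482 (31.0%) lay on the floor in all 6 lists. Of these 36.1% were called higher and 3.22% lower, against 17.2% and 0.609% of the 3939 above it. Over the 3939 regions the input level was higher in Cnr in 403 (10.2%) and lower in 596 (15.1%), and the IP signal was higher in 971 (24.7%) and lower in 212 (5.38%). The standard error of an IP change was again a pooled one, 0.149 at every named region. That of an input change varied, for example 0.0164 at Solyc03g118300 and 0.218 at Solyc09g090200. The IP calls thus rest on the fold change alone, and input and IP calls are not like tests. The median log2 input level per list differed by 0.0015 between Cnr and wild type (exact two-sided permutation test, p = 1), and the median log2 IP signal by 0.31 (p = 0.1, exact test, the smallest possible). Both are scaled to the floor of their own list, over regions chosen to lie above it, so these medians do not assign the shift to the IP or the input.

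At the single regions called, the input often moved too. Among the 679 rises above the floor, the input was called lower in 252 and higher in 3, and the IP was called higher in 194 and lower in 57. In 185 of them the IP was higher and the input was not called, and in 189 the input was lower and the IP was not called. Among the 24 falls, the input was called higher in 17 and lower in 1, and the IP higher in 13 and lower in 3. All 13 had a higher input as well. The input enters the enrichment as its denominator, so the directions of the enrichment and the input are not independent.

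The pyridoxal phosphate-dependent transferase Solyc03g118300 showed both movements. Its input was 4.02, 3.92 and 3.98 times the floor in Cnr, against 7.52, 7.47 and 7.61 in the wild type, and its IP was 31.7, 28.0 and 32.8 times the floor in Cnr, against 20.02, 19.2 and 18.7 in the wild type. In log2, the change was -0.92 in input and 0.67 in IP. The kinase Solyc09g090200 had a log2 change of -0.86 in input and 0.75 in IP. In these transcripts the IP signal was higher in Cnr although the input was lower.

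In other rises the input was lower and the IP was not higher. In the pyruvate kinase family protein Solyc10g083720, of the last step of glycolysis, the enrichment was 12.9, 11.3 and 14.4 in Cnr, against 4.58, 5.60 and 3.997 in the wild type. Its input was 2.93, 2.75 and 2.79 times the floor in Cnr, against 8.93, 8.87 and 8.90 in the wild type, while its IP changed by -0.20 on the log2 scale. In the methyltransferase superfamily protein Solyc01g091690 the enrichment was 3.89, 2.39 and 4.87 in Cnr, against 1.23, 1.53 and 1.28 in the wild type. Its input and its IP were both lower in Cnr, with log2 changes of -2.43 and -1.01.

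Most falls above the floor had a higher input in Cnr. The lipocalin had an input of 10.6, 10.7 and 10.8 times the floor in Cnr, against 2.20, 2.31 and 2.18 in the wild type. Its IP was higher in Cnr as well, at 31.1, 30.3 and 30.1 times the floor, against 18.9, 18.7 and 16.1 in the wild type. The IP signal was thus higher in Cnr although the enrichment fell. The beta-glucosidase Solyc07g063390 had log2 changes of 1.52 in input and 0.47 in IP, and formate dehydrogenase (Solyc02g086880), which oxidises formate to carbon dioxide, had 1.42 and 0.43. The C1 domain protein Solyc05g005460 went furthest, with an input of 14.6, 17.8 and 14.1 times the floor in Cnr, against 1.86, 2.02 and 1.85 in the wild type. Its enrichment was 4.24, 3.51 and 4.60 in Cnr, against 8.69, 7.96 and 7.08 in the wild type.

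SlDML2 (Solyc10g083630), the DNA demethylase of ripening fruit, had 1 region that rose and others that were called in the wild type alone. The region across its stop codon, on chromosome 10 from 63531344 to 63531681, was enriched 7.07, 5.43 and 8.08-fold in Cnr, against 2.88, 3.33 and 2.56 in the wild type. The log2 change was 1.22, and 0.83 after centring, and both were called. Its input was 3.22, 3.54 and 2.96 times the floor in Cnr, against 10.97, 10.9 and 11.01 in the wild type, and its IP was 22.9, 19.3 and 24.1 times the floor in Cnr, against 31.6, 36.5 and 28.2 in the wild type. Both were lower in Cnr, the input by more than the IP, with log2 changes of -1.76 and -0.54.

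Within the coding sequence of SlDML2, the region from 63534056 to 63534281 had a peak in no Cnr list and an enrichment of 1.70, 1.59 and 1.90 in the wild type. The region from 63535965 to 63536214 likewise had a peak in no Cnr list and 2.34, 2.43 and 2.48 in the wild type. A region from 63539406 to 63539950 had 1.46 in Cnr replicate 2 only, against 1.79, 1.96 and 1.78 in the wild type. These 3 regions had a peak in every list at 39 DPA. A peak that was not called is not a measured absence. The wild-type enrichments were low here and the SlDML2 input across the stop codon was lower in Cnr, and the part of this in the missing calls was not tested.

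**Figure D4:**
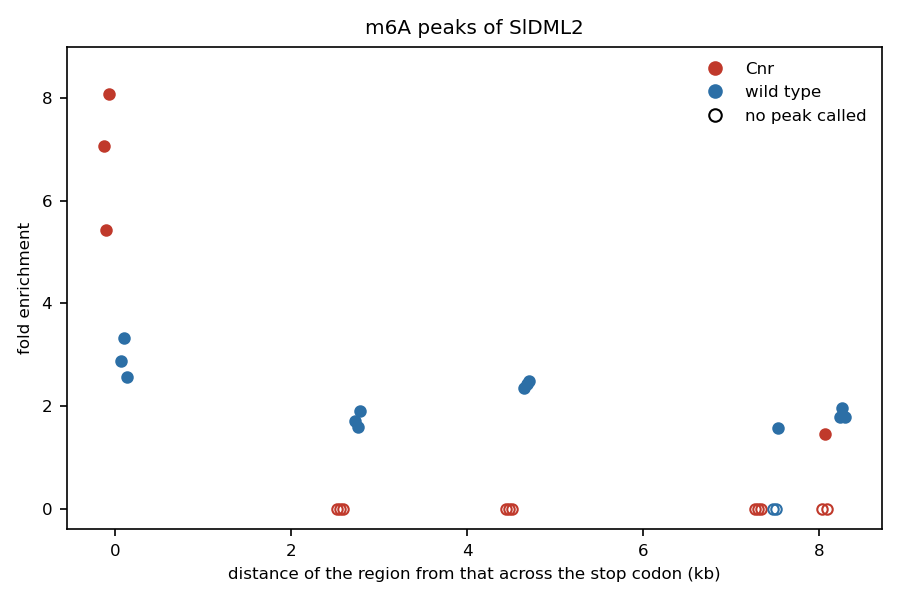
Fold enrichment (vertical axis, linear, no unit) of the m6A peaks of SlDML2 by the distance of each region's centre from that of the region across the stop codon (horizontal axis, kb). Red points are Cnr lists and blue points wild-type lists at 42 DPA, shifted sideways to be seen, and open circles at 0 stand for lists without a called peak. Cnr lies above the wild type across the stop codon, at 5.43 to 8.08 against 2.56 to 3.33, and has 1 called peak at the regions farther off.

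FUL2 (Solyc03g114830), a MADS-box transcription factor, had its region across the stop codon on chromosome 3 from 66183197 to 66183564. Its enrichment was 8.17, 7.63 and 8.01 in Cnr, against 5.14, 5.86 and 3.57 in the wild type. The log2 change of 0.74 was called, but after centring it was 0.35 and not called. Without wild-type replicate 3 the change was 0.53 and fell short of 1.5-fold. Its input changed by -1.12 on the log2 scale and its IP by -0.38.

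The ethylene receptor NR (Solyc09g075440) shared its region in the 3′ UTR, on chromosome 9 from 67559704 to 67560165, with Solyc09g075430, a ribosomal protein L19, so the peak cannot be assigned to either alone. The enrichment was 11.8, 9.59 and 13.8 in Cnr, against 4.41, 4.05 and 3.66 in the wild type. The log2 change was 1.52, and 1.14 after centring. The IP changed by -0.02 on the log2 scale, at 56.2, 46.7 and 59.1 times the floor in Cnr, against 58.3, 57.2 and 48.3 in the wild type. The input was 4.76, 4.84 and 4.27 times the floor in Cnr, against 13.2, 14.1 and 13.2 in the wild type. The input was thus lower in Cnr with little change in the IP. Both are scaled to the floor of their own list, so the rise is not assigned to either.

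The pathways around these genes were followed with lists of identifiers. Of 11 regulators of ripening, 7 had any peak and 5 a region in all 6 lists. FUL2 was the only one of these called higher, none was lower, and the median log2 change over the list's 6 regions was 0.31. Over all shared regions 25.2% were called higher and 1.91% lower, and the median was 0.36. After centring none of the 5 was higher and 1 was lower, beside 5.42% and 7.93% of all shared regions. MADS-box protein 1 (Solyc03g114840), with 17.9, 12.7 and 19.5 in Cnr, against 13.7, 13.6 and 12.1 in the wild type, had overlapping groups and a log2 change of 0.33 that was not called.

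Of 16 genes of ethylene perception and signalling, 10 had a shared region, with 4 called higher, none lower and a median log2 change of 0.13. Over all shared regions the shares called were 25.2% and 1.91% and the median 0.36. After centring 2 of the 10 were higher and 2 lower, beside 5.42% and 7.93% of all. Solyc10g083610, which has no description here, was called higher, with a log2 change of 0.64. After centring its change was 0.25 and not called. CTR1-like protein kinase-4 (Solyc10g085570), of a family whose Arabidopsis member represses the ethylene response, had 12.4, 8.54 and 13.4 in Cnr, against 4.59, 4.49 and 3.91 in the wild type, a log2 change of 1.38. CTR1-like protein kinase-3 (Solyc09g009090) had 7.97, 6.69 and 8.70 in Cnr, against 5.29, 4.94 and 4.09 in the wild type, a log2 change of 0.71 that was not called after centring. At these regions of both kinases the background was on the floor in all 6 lists, so transcript level and m6A cannot be told apart. CTR1-like protein kinase-3 had a second region, within the coding sequence, with 4.71, 4.20 and 4.83 in Cnr and no peak in the wild type at 42 DPA. That region had a peak in all 3 lists at 39 DPA, with 4.20, 3.61 and 3.67, so only breaker fruit had no peak called there. A peak that was not called is not a measured absence. The second region, from 2441947 to 2442206, lies close to the shared one, from 2442369 to 2442641.

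Of 11 genes of ethylene synthesis and early response and of 8 genes of cell wall softening, none had a region in all 6 lists, and 9 and 6 of them had no peak in any. These are genes that ripening fruit is known to express strongly. For those without a called peak, nothing can be said here of their m6A. Solyc02g036350, of the ethylene list, had a peak in every wild-type list at 42 DPA and in no Cnr list. A peak that was not called is not a measured absence. The other genes with a peak had it in some other set of lists. Of 13 carotenoid genes, 6 had a shared region, and zeta-carotene desaturase (Solyc01g097810), an enzyme on the way to lycopene, was called higher and none lower. It had 13.1, 9.18 and 15.1 in Cnr, against 6.20, 4.998 and 5.19 in the wild type, a log2 change of 1.17. Its input changed by -1.36 and its IP by -0.18. The median over the 6 carotenoid regions was 0.16, beside 25.2% called higher and a median of 0.36 over all shared regions. After centring, zeta-carotene desaturase was still called higher, and Solyc02g081330 was called lower, with -0.80. The centred shares over all shared regions were 5.42% higher and 7.93% lower.

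Of 11 genes of DNA demethylation and methylation, 5 had a shared region, 3 were called higher and none lower, and the median log2 change was 0.98, beside 25.2%, 1.91% and 0.36 over all shared regions. A wild-type-only region was found in 2 members, SlDML2 and Solyc04g005250. Solyc09g009080, which has no description here, was called higher, with a log2 change of 1.07, or 0.68 after centring. The study chose SlDML2 from these samples, so its place in the list is not independent. DNA demethylase 3 (Solyc11g007580) had 11.9, 8.43 and 11.2 in Cnr, against 5.60, 5.47 and 4.76 in the wild type, which is 0.98 in log2, or 0.60 after centring. Every list had its background on the floor there, so that transcript level and m6A cannot be told apart.

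The ALKBH family, to which the m6A demethylases of plants and animals belong, was followed over its tomato members. Of these 8, 3 had a shared region, 3 had a region called in Cnr alone and 2 had no peak. Of all 11633 merged regions, 668 were called in Cnr alone. In 76.6% of those 668 the background was on the floor in every list with a peak. The part of transcript level in the ALKBH calls was not tested. SlALKBH2 (Solyc01g104130), on chromosome 1 from 92495538 to 92495772, was enriched 4.18, 3.40 and 4.39-fold in Cnr and had a peak in no wild-type list at 42 or 39 DPA. SlALKBH4 (Solyc02g083960) had 4.52, 4.75 and 4.16 in Cnr, and its only wild-type peak was at 39 DPA, with 2.23 in replicate 3. SlALKBH6 (Solyc04g045590) had a region with 4.28, 2.74 and 4.80 in Cnr and 3.03 in wild-type replicate 1. It had a further region in the 3′ UTR with 3.41, 3.22 and 3.97 in Cnr and none at 42 DPA in the wild type, which had a peak there in all 3 lists at 39 DPA.

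The shared regions of the family changed by less than 1.5-fold and were not called. SlALKBH1 (Solyc01g057570) had 11.98, 9.04 and 13.7 in Cnr, against 8.76, 10.3 and 7.36 in the wild type, a log2 change of 0.39 (BH-adjusted p = 0.0508 from limma), or of -0.0018 after centring. SlALKBH3 (Solyc02g062180) had a log2 change of 0.23, or -0.16 after centring, and the region shared by SlALKBH5 (Solyc04g015080) and Solyc04g015090 had -0.05, which was 0.10 without wild-type replicate 2 and -0.43 after centring (BH-adjusted p = 0.0105 from limma), under the 1.5-fold minimum. The signs thus depended on the centring or on a list.

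Regions of 1 genotype only differed in kind between Cnr and wild type. The median enrichment was 3.62 in the 668 regions called in Cnr only and 2.90 in the 314 called in the wild type only, beside 7.26 in the regions of all 6 lists. Within the coding sequence lay 2.69% of the Cnr-only regions and 22.6% of the wild-type-only regions, and outside annotated genes lay 13.6% and 8.28%. In the regions of all 6 lists these shares were 2.32% and 3.50%. The background was on the floor in every list with a peak in 512 of the Cnr-only regions (76.6%) and in 114 of the wild-type-only regions (36.3%). It was so in 31.0% of the regions of all 6 lists. For most Cnr-only regions the transcript level therefore cannot be separated from m6A.

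The earlier stage divided these regions further. Of the 668 Cnr-only regions, 161 had a peak in all 3 wild-type lists at 39 DPA and 364 (54.5%) in none. Of the 314 wild-type-only regions, 198 (63.1%) had a peak in all 3 lists at 39 DPA and 62 in none. Of the regions of all 6 lists, 97.9% had a peak in all 3 lists at 39 DPA and 0.637% in none. Most wild-type-only peaks were thus already called before breaker, though a smaller share than of the shared regions. The 161 Cnr-only peaks were ones that the wild type had at 39 DPA and that were not called at breaker. The number of wild-type-only regions depended on Cnr replicate 2. A further 322 regions had a peak in Cnr replicate 2 and all wild-type lists, with a median enrichment of 1.95, and 53.1% of them lay in the coding sequence. Without that list 637 regions were called in the wild type only and 931 in Cnr only.

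**Figure D5:**
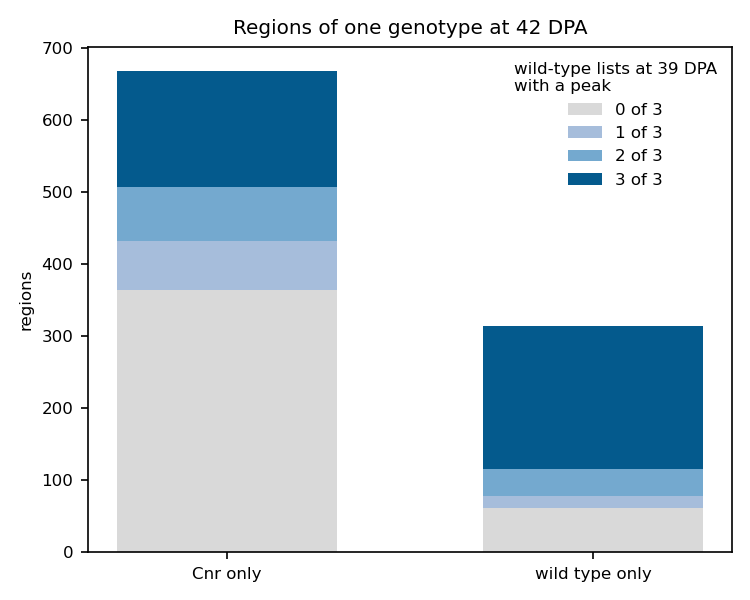
Number of regions (vertical axis) with a peak in all 3 lists of Cnr and none of the wild type at 42 DPA (left bar, 668) or the reverse (right bar, 314), divided by how many of the 3 wild-type lists at 39 DPA had a peak there. The larger segment is that without a peak at 39 DPA for Cnr only (364) and that with a peak in all 3 lists for the wild type only (198).

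The highest of the Cnr-only regions was in Solyc03g121940, a nuclear transcription factor Y subunit, of the factors that bind CCAAT promoter elements. Its region across the stop codon, on chromosome 3 from 71422713 to 71423025, had 11.7, 10.5 and 11.2 in Cnr and no peak in any wild-type list at 42 or 39 DPA. Next was Solyc09g007280, annotated with protein kinase activity, with 12.005, 8.99 and 12.7 in Cnr and 3.27, 3.03 and 3.61 in the wild type at 39 DPA. Solyc12g088050, annotated with catalytic activity in carbohydrate metabolism, had 11.9, 8.21 and 11.4 in Cnr, and Solyc05g007490, annotated with methyltransferase activity, had 10.6, 8.13 and 11.9. These 2 had peaks at 39 DPA too, of 4.66 to 5.23 and of 5.18 to 5.47. The NF-Y subunit was thus the only one of the first 4 without a wild-type peak at either stage.

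The next Cnr-only regions were in Solyc03g114210, also annotated with protein kinase activity (10.5, 7.99 and 10.96), in the 3′ UTR of Solyc12g096630 and Solyc12g096635 (9.97, 8.44 and 10.5), outside genes on chromosome 2 from 40363619 to 40364020 (10.6, 7.25 and 10.98) and in Solyc08g014150 (9.66, 7.58 and 10.6). In each of these the values are those of Cnr replicates 1 to 3, and replicate 2 was the lowest. By the deposited GO terms, protein kinase activity was annotated to 30 of 347 Cnr-only regions over 1 gene with a term (8.65%) and to 6 of 172 wild-type-only regions (3.49%), beside 4.62% of the shared regions. Oxidoreductase activity was annotated to 2.31% of the Cnr-only and 7.56% of the wild-type-only regions, beside 2.13%. These terms were picked after the counts were seen.

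The highest of the wild-type-only regions was in Solyc05g056270, with no peak in Cnr and 8.77, 10.1 and 7.71 in the wild type. It had 8.14, 10.7 and 10.3 at 39 DPA, so its level was like that of the younger fruit. Solyc01g005280 and Solyc01g005290, both on chromosome 1 within 204666 and 209331, had no peak in Cnr and none at 39 DPA. Their wild-type values at 42 DPA were 9.31, 8.85 and 7.09 in Solyc01g005280 and 8.50, 8.54 and 7.75 in Solyc01g005290. They were the only ones of the first 8 whose peaks were called at breaker alone.

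Serine hydroxymethyltransferase (Solyc02g091560), which links serine and glycine to one-carbon metabolism, had no peak in Cnr and 8.15, 8.34 and 7.20 in the wild type. Pyruvate dehydrogenase E1 component subunit beta (Solyc05g024160), which feeds pyruvate into acetyl-CoA, had no peak in Cnr and 7.92, 7.86 and 6.53 in the wild type. An amino acid transporter (Solyc03g078150) had no peak in Cnr and 8.02, 7.20 and 6.40 in the wild type. Solyc05g006440 and Solyc04g071340, which have no description in the tables used here, completed the first 8, with wild-type means of 8.42 and 7.03. Over the wild-type-only regions, 291 covered 324 genes, and 76 of them lay in a gene that also had a shared region. Over the Cnr-only regions, 579 covered 655 genes, and 68 lay in such a gene.

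A gene could carry both kinds, as 6 did. The arginine/serine-rich splicing factor RSP41 (Solyc11g072320), which takes part in mRNA splicing, had an intronic region shared with Solyc11g072330, a two-component response regulator, with 5.04, 3.79 and 4.95 in Cnr and no peak in the wild type at 42 DPA. Another of its intronic regions, on chromosome 11 from 55822995 to 55823300, had no peak in Cnr and 5.78, 6.34 and 5.64 in the wild type.

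Transcripts with several shared regions did not always change evenly. Of 99 such transcripts, 35 had at least 1 region called higher and in 4 all regions were. None had 1 region called higher and another lower. With 25.2% of all shared regions called higher and 1.91% lower, these counts say nothing particular of such transcripts. The changes of 2 regions of a transcript differed by a median of 0.60 on the log2 scale, and by 1 or more in 11 transcripts.

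In Solyc10g083640, zinc finger transcription factor 64, no list had its background on the floor at either region. Its 3′ UTR region on chromosome 10 from 63555007 to 63555411 had 14.8, 11.98 and 15.4 in Cnr, against 6.003, 5.15 and 5.18 in the wild type, a log2 change of 1.37. Its coding region from 63556111 to 63556615 had 2.05, 2.76 and 1.90 in Cnr, against 1.86, 2.41 and 1.55 in the wild type, a change of 0.21 that was not called and was -0.18 after centring. The input changed by -0.22 at the first and by 0.07 at the other, and the IP by 1.14 and 0.28. At the 3′ UTR region the IP, as a multiple of each list's floor, thus changed more than the input.

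In Solyc06g007660 the region across the stop codon had 15.4, 10.5 and 17.3 in Cnr, against 8.02, 7.61 and 7.58 in the wild type, a log2 change of 0.87 that was 0.48 and not called after centring. Its coding region had 2.13, 2.43 and 2.17 in Cnr, against 3.03, 2.57 and 2.996 in the wild type, a change of -0.35 that was not called. After centring this was -0.74 and called lower. The background of this transcript was on the floor in all 6 lists across the stop codon and in none within the coding sequence. In Solyc03g063340, annotated with DNA-directed DNA polymerase activity, the intronic region had a change of 0.49 and was not called. Its region across the stop codon had 8.49, 4.83 and 8.96 in Cnr, against 12.4, 11.8 and 11.4 in the wild type, a change of -0.72 that was -0.44 and not called without Cnr replicate 2. Both regions of Solyc03g063340 had the background on the floor in all 6 lists. In Solyc07g053610 the coding region had a change of -0.65 and the regions across the stop codon and in the 3′ UTR had 0.49 and 0.55, neither of which was called. These calls turned on single lists. The coding region was at -0.49 without Cnr replicate 3 and at -0.44 without wild-type replicate 2, and was then not called. Without wild-type replicate 2 the other regions, at 0.61 and 0.65, were called higher, and the 3′ UTR region was so too without Cnr replicate 1 or 3.

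Within the shared regions the position of the summit moved little. The median distance between the highest summits of a Cnr and a wild-type list in the same region was 5 to 17 bp over the 9 pairs of lists, against 3 to 12 bp between lists of the same genotype. In 18 of the 8007 regions the summits of the genotypes stood more than 100 bp apart. By pair of lists, 0.79% to 1.02% of the regions had summits over 100 bp apart between genotypes, against 0.32% to 0.65% within a genotype. The regions were chosen for overlapping peaks in all 6 lists, which favours near summits. Regions with a peak in 1 genotype only do not enter, so these distances do not show whether peaks changed place in general.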

How the data were processed

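The m6A-seq data were 9 peak lists made by the authors from 18 libraries. Per the labels and the study's methods, reads were trimmed (FastQC 0.11.7, cutadapt 1.16 and Trimmomatic 0.30 are named), aligned to the SL3.0 tomato genome with BWA and kept when mapped uniquely at a MAPQ of at least 13, and peaks were called with MACS in each IP library against its input with the false discovery rate held under 0.05. As deposited, fold enrichment is the authors' ratio (IP fragments + 1) / (background + 1). Values of −log10 p and −log10 q, and the peak score made from them, are also the authors' and rest on a Poisson model. In 2 lists the names of these columns were lost, and they were read by place. Overlapped genes, GO terms and the transcript part of each peak's start, centre and end were taken from the deposited annotation. Reads and read totals were not used here.

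For every summit, the number of IP fragments and the background were solved from its fold enrichment and p-value together, a step tested on simulated data. The floor is the background found most often in a list, and summits within 0.1 fragments of it counted as on it. Median IP fragments per summit were 392 to 500.0 in the 6 lists, and this number limits the precision of each value.

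Regions in all 6 lists were fitted with limma 3.58.1 in R 4.3.3 on log2 enrichment, with BH adjustment over all regions of the fit. For single values per list, exact two-sided permutation tests were used. Python 3.11.15, numpy 2.4.6, pandas 2.3.3, scipy 1.17.1 and matplotlib 3.10.9 served for the rest. Replicates with the same number deviated together (Pearson's r of 0.184, 0.442 and 0.341 over regions, all above 0.1), so the number was also fitted as a block. Unlike numbers correlated too (0.190 for Cnr 1 and wild type 3, 0.231 for Cnr 3 and wild type 1), so true pairs cannot be claimed. What the number marks is not given in the sources used here.

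The regions, gene lists and alternatives were chosen with earlier results of these data known. Named were the 12 largest called rises and falls over 1 described gene without overlap (6 each in full), the 4 largest each way above the floor, the 8 highest regions of each genotype only, the members of the lists that were called or absent in 1 genotype, the 4 transcripts whose regions differed most in change, and SlDML2, FUL2 and NR. Other genes were named after their values were seen. Primer sequences were copied from the study's tables. No genome was used, so regions carry no sequence and the oligonucleotides no position.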

Additional observations from a re-analysis of the deposited data

How the results depend on the processing

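The calls depended mostly on the threshold and on the regions admitted. With regions above the floor only, 679 were higher and 24 lower in Cnr, and 80 and 226 after centring. With a fold change of at least 2, they were 379 and 35, and 70 and 139 after centring. With a BH-adjusted p under 0.05 from limma and no fold minimum, they were 3723 and 322, and 1595 and 2002 after centring. Quantile normalisation in place of centring gave 520 higher and 467 lower, a more even split than 434 and 635.

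Leaving out 1 list gave 1484 to 2970 higher and 132 to 212 lower regions, or 403 to 504 and 602 to 839 after centring. Regions of Cnr only numbered 677 to 931 and those of the wild type only 335 to 637, the last without Cnr replicate 2. The difference in median log2 enrichment was 0.31 to 0.49, that of coding regions from those across the stop codon -0.44 to -0.22, and the median summit distance 6 to 8.5 bp (the last 2 added after the data were seen). Input was higher in 375 to 438 and lower in 576 to 630 regions, and IP higher in 766 to 1264 and lower in 178 to 282. With a background of at least 2 times the floor, input was higher in 125 and lower in 284 regions, and IP higher in 299 and lower in 101.

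With the replicate number as a block, the paired fit called the same numbers, 2014 higher and 153 lower, and changed no call of a named region. Among the named regions, 4 changed sign on centring: Solyc03g114840 to -0.063, SlALKBH1 to -0.0018, SlALKBH3 to -0.16 and the coding region of Solyc10g083640 to -0.18. The SlALKBH5 region changed to 0.10 without wild-type replicate 2. None of these was called. Merging at 100 bp, stricter peaks and the mean of summits kept each count within 1.5 times. Depth limits regions of low enrichment and those on the floor, where the input is unknown.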

Other observations

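By the deposited GO terms, the shift was uneven between groups of transcripts, which are described here without a test because the terms were read after the values were known. Over the 4698 shared regions with 1 gene and a term, 25.6% were called higher and 1.85% lower in Cnr, with a median log2 change of -0.03 after centring. The 217 regions of genes with protein kinase activity had 31.3% called higher and 0.461% lower, and a centred median of 0.05. The 56 regions of sequence-specific transcription factors had 37.5% called higher and a centred median of 0.06. The 46 methyltransferase regions had 23.9% called higher and 2.17% lower, and after centring 15.2% higher and 8.70% lower, beside 5.32% and 7.30% over all regions with a term. After centring, the kinase regions had 10.6% higher and 2.30% lower and the transcription factor regions 8.93% and 7.14%. Lower centred medians were found for the ribosome, with 13.04% called higher and -0.16 in 46 regions, although the larger term structural constituent of ribosome, with 215 regions, had 18.6% and -0.04. Metabolic process had 12.9% called higher and a centred median of -0.15 in 101 regions, and hydrolase activity had none of 65 regions called higher after centring and 10 called lower. Carbohydrate metabolism had 11 of 49 regions called lower after centring, or 22.4%, beside 7.30%.

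Among described genes of regions called in Cnr only, inositol-1,4,5-triphosphate-5-phosphatase 3 (Solyc06g054010), which turns off inositol phosphate signals, had 8.71, 7.29 and 9.12 in Cnr and no wild-type peak at 42 or 39 DPA. Arogenate dehydratase (Solyc02g080620), of phenylalanine synthesis, had 8.05, 5.60 and 8.77 in Cnr and likewise none. Among those called in the wild type only, bHLH transcription factor 058 (Solyc09g063010) had no peak in Cnr and 6.04, 6.73 and 5.09 in the wild type at 42 DPA, with none at 39 DPA. These genes were chosen after their values were seen.

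Regions on the floor in all wild-type lists and in no Cnr list, of which there were 571, had a median log2 change of 0.43, with 33.8% called higher and 1.40% lower. Regions on the floor in all Cnr lists and in no wild-type list, 469 in number, had a median of 0.18, with 13.6% called higher and 6.40% lower. Over all shared regions the median was 0.36, with 25.2% called higher and 1.91% lower. In the 2482 regions on the floor in all 6 lists it was 0.44, with 36.1% and 3.22%. The set of 571 holds transcripts with more input in Cnr and that of 469 transcripts with less, as far as the floor shows it.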
